A study of Homo sapiens with 13 samples.

Results

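DYNLT1 encodes a Tctex-type light chain of cytoplasmic dynein, and it was examined here as one gene across all pull-downs of the series. Its members were all probes of the normalized table annotated to DYNLT1, which came to 1 probe (ILMN_1678766) of 12007. The gene was selected on its signal in the miR-17-5p libraries, since the study cloned a miR-17-5p seed site from it after its mRNA had appeared in that pull-down, so its values that use miR-17-5p libraries are given as a description without a test, as are those of the other reporter genes. The other dynein subunits and the genes of related lists were tested in these libraries. They too were taken up with earlier results of these data known. DYNLT1 was set beside the other dynein subunits with a probe, 14 probes of 10 genes, out of 8380 genes in all. Sequence specificity of the single DYNLT1 probe was not checked.

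HEK293T, a human embryonic kidney cell line in wide use, received 200 pmol of a biotinylated miRNA duplex, and mRNA held by streptavidin was collected 24 h later and hybridized to bead arrays. There were 3 libraries of each of 3 duplexes (miR-17-5p, its isomiR called miR-17-5p-iso, then miR-27a), while miR-23b had 2 libraries, as had miR-182-iso, an isomiR that begins 2 bases downstream of the mature strand in RefSeq. All 13 libraries thus carried a duplex, and no mock-transfected library was among them. Each pull-down was therefore compared with other pull-downs, and the values describe captured mRNA, not the amount of mRNA in the cells. Nothing in the labels says whether replicates were separate cultures, so p-values measure the spread between these libraries only. The identity of the cell line was not checked with marker genes.

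A miRNA is loaded into an Argonaute protein and recognizes mRNA mainly through its seed, bases 2 to 8 from the 5′ end. An isomiR is a variant of the same miRNA with a shifted end, and a shift at the 5′ end changes the seed. Cytoplasmic dynein is the motor that moves cargo toward the minus ends of microtubules. It is built on a pair of heavy chains with intermediate and light intermediate chains, and dimers of 3 light chain families (Tctex-type, LC8-type and roadblock-type) bind the intermediate chains. Tctex-type chains such as DYNLT1 have also been described as adaptors for cargo proteins.

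The 5 duplexes are printed because their seeds define the comparison. They are the study's designed strands, 5′ to 3′, with the seed in capitals.
miR-17-5p: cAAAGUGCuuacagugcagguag
miR-17-5p-iso: uCAAAGUGcuuacagugcaggua
miR-27a: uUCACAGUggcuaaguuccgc
miR-23b: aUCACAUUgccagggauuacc
miR-182-iso: uGGCAAUGguagaacucacacu
RefSeq (GRCh38.p14) places mature miR-17-5p at chr13:91350618-91350640 on the plus strand, and the isomiR begins 1 base upstream of it. The 2 strands share all but their outermost bases, while their seeds are offset by 1 base. No seed was shared between any 2 of the 5 duplexes.

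The cloned sites of DYNLT1 and of the other genes with a miR-17-5p seed-site reporter, APH1A and AKT1, are shown because they hold the same 7 bases. Each line gives 29 bases of the sense strand of the study's oligo, 5′ to 3′, and the capitals mark the match to miR-17-5p bases 2 to 8.
DYNLT1: cattctctttgttttgtgGCACTTTcaca
APH1A: ctgcggtgtttttcggctGCACTTTcgtc
AKT1: tgaagctgctgggcaaggGCACTTTcggc
In the DYNLT1 oligo of 60 bases this match occurred 1 time, and no match to bases 2 to 8 or 2 to 7 of miR-17-5p-iso, miR-27a, miR-23b or miR-182-iso was found. Laid on the site, miR-17-5p paired without a break over positions 2 to 8 and miR-17-5p-iso over positions 3 to 9, a run of 7 Watson-Crick pairs for each. Over the 23 positions, miR-17-5p-iso had 11 Watson-Crick and 3 G-U pairs, and miR-17-5p had 10 and 4. A centered match of 11 bases, with G-U pairs allowed, had at least 3 mismatches for either duplex. The search covered the cloned stretch only, whose place within the DYNLT1 transcript was not looked up, and the rest of the transcript was not searched. DYNLT1 lies on chromosome 6.

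Captured DYNLT1 mRNA was high in both miR-17 pull-downs and low in the rest. In the miR-17-5p libraries the normalized signal on the log2 scale was 12.72, 12.35 and 12.99. In the miR-17-5p-iso libraries it was 13.57, 13.004 and 14.07. It was 9.71, 10.04 and 9.95 with miR-27a, 10.01 and 9.90 with miR-23b, and 10.10 and 10.19 with miR-182-iso. All 6 miR-17 libraries lay above all 7 of the others, and the lowest of the 6 stood 2.17 above the highest of the 7. A complete separation of this kind was seen for 213 probes, 1.77% of the table, and the DYNLT1 probe had the widest gap of all 12007 probes. Because the miR-17-5p libraries among them had led to the choice of the gene, this is a description.

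**Figure D1:**
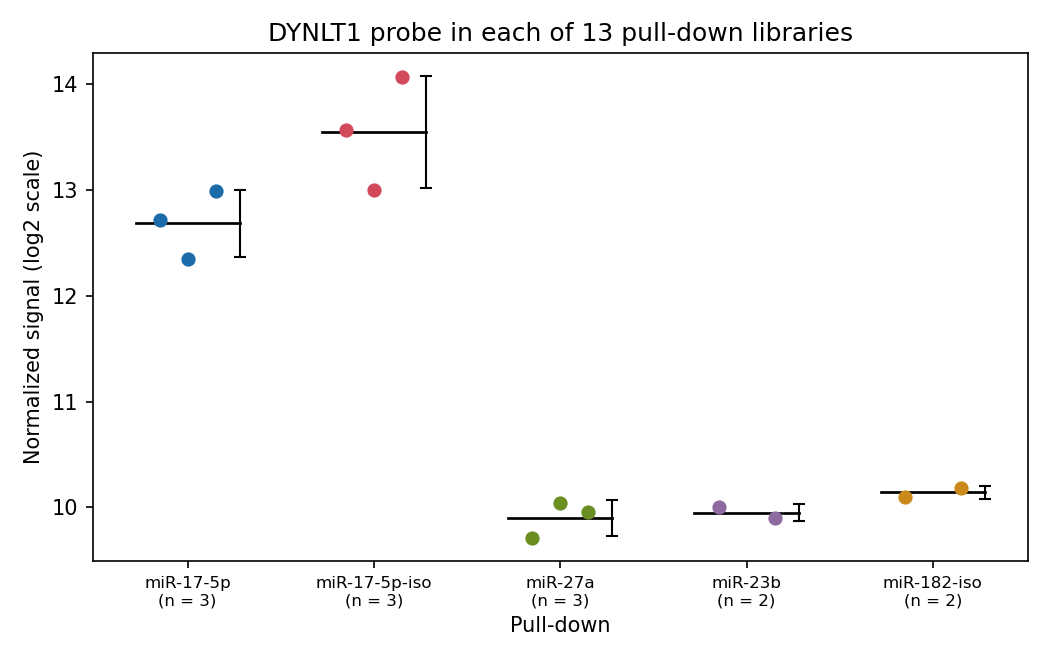
Normalized signal of the DYNLT1 probe (log2 scale, vertical axis) in each library of the 5 pull-downs (horizontal axis); points are libraries, lines are group means and bars are SD. The 6 miR-17 libraries sit between 12.35 and 14.07, above the other 7, which sit between 9.71 and 10.19.

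By group, the DYNLT1 signal averaged 12.69 ± 0.32 with miR-17-5p and 13.55 ± 0.53 with miR-17-5p-iso, against 9.90 ± 0.17 with miR-27a (SD, n = 3 each). It averaged 9.95 ± 0.08 in the miR-23b pull-down and 10.14 ± 0.06 in that of miR-182-iso (SD, n = 2 each). The order of the levels was thus miR-17-5p-iso, miR-17-5p, miR-182-iso, miR-23b and miR-27a. The spread between replicates was widest in the group with the highest level.

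The study chose the gene from the miR-17-5p pull-down, not from that of miR-17-5p-iso, but it was taken up here with earlier results of all the libraries known. The miR-17-5p-iso pull-down was compared with the equal mean of miR-27a, miR-23b and miR-182-iso. DYNLT1 was 13.55 in the isomiR pull-down and 9.999 in the comparator, a difference of 3.55 on the log2 scale (SE 0.21, 95% interval 3.09 to 4.01, limma adjusted p = 3.23e-05), or 11.7-fold. Probes called higher in this comparison made up 5.11% of the table, and the difference of DYNLT1 stood at rank 2 of 12007 probes. Its lowest isomiR library exceeded the highest of the 7 unrelated libraries by 2.82, the widest gap of any probe, where 4.76% of probes had all isomiR libraries above all 7.

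Against single pull-downs the isomiR showed the same size of difference. It was 3.65 against miR-27a (95% interval 3.11 to 4.18, limma adjusted p = 7.68e-05), where 8.82% of probes were called higher. It was 3.60 against miR-23b (95% interval 2.99 to 4.20, limma adjusted p = 0.000322), where 3.27% were called higher. It was 3.40 against miR-182-iso (95% interval 2.80 to 4.01, limma adjusted p = 7.07e-05), where 8.89% were called higher. The 3 intervals overlapped along most of their length. The call against the mean of the 3 held without each of the 13 libraries in turn, where the difference ran between 3.29 and 3.82 and the adjusted p between 9.68e-06 and 0.000341.

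For miR-17-5p itself the DYNLT1 difference was 2.69 (SE 0.21), or 6.44-fold, with 12.69 in the miR-17-5p pull-down and 9.999 in the comparator, given as a description. It stood at rank 4 of 12007 probes. This comparison and that of the isomiR share the same 7 comparator libraries, so their values are not independent. Set directly against each other, miR-17-5p was below its isomiR by 0.86 on the log2 scale (SE 0.24), and the highest miR-17-5p library (12.988) and the lowest isomiR library (13.004) were nearly level. That difference used the miR-17-5p libraries and was not tested.

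The remaining 3 pull-downs gave close levels of DYNLT1. The difference miR-27a minus miR-23b was -0.05 (95% interval -0.65 to 0.55, limma adjusted p = 0.957). The difference miR-27a minus miR-182-iso was -0.24 (95% interval -0.84 to 0.36, limma adjusted p = 0.518), and miR-23b minus miR-182-iso was -0.19 (95% interval -0.85 to 0.47, limma adjusted p = 0.678). None of these 3 pairs was called, while 7.06%, 38.0% and 24.6% of all probes were called in them in that order. With these numbers of libraries, differences of up to 0.85 on the log2 scale stay within the intervals.

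When each of these 3 was compared with the equal mean of the other 2 and miR-17-5p-iso, DYNLT1 was called lower every time. The differences were -1.31 for miR-27a (SE 0.21, limma adjusted p = 0.0024), -1.25 for miR-23b (SE 0.23, limma adjusted p = 0.0175) and -0.99 for miR-182-iso (SE 0.23, limma adjusted p = 0.0102). Probes called lower made up 14.4%, 2.22% and 15.5% of the table in these comparisons. The isomiR libraries in the comparator set these values. With both miR-17 duplexes out of the comparator, an alternative chosen after the DYNLT1 levels were seen, the differences were -0.15 (miR-27a), -0.07 (miR-23b) and 0.22 (miR-182-iso; limma adjusted p = 0.673, 0.887 and 0.531), so the calls were lost and the last one turned its sign. The miR-23b call was also lost without miR-23b replicate 1 (-1.30, limma adjusted p = 0.188) or 2 (-1.19, 0.138), and the miR-182-iso call without miR-182-iso replicate 1 (-0.95, limma adjusted p = 0.0729) or 2 (-1.03, 0.0853). In those fits the lone library left is assumed to vary like the other groups.

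APH1A, a subunit of the γ-secretase complex, and AKT1, a serine/threonine kinase of insulin and growth factor signaling, carry the same 7-base site in their cloned stretches, and their captured mRNA differed far less between pull-downs. AKT1 read 11.26, 11.19 and 12.17 with miR-17-5p and 12.45, 11.48 and 12.16 with miR-17-5p-iso, against 11.002, 10.41 and 11.12 with miR-27a, 11.62 and 11.56 with miR-23b and 11.07 and 10.75 with miR-182-iso. The groups overlapped, since both miR-23b libraries lay above 2 of the miR-17-5p libraries. Its difference was 0.91 for miR-17-5p-iso (95% interval 0.32 to 1.51, limma adjusted p = 0.0671) and 0.42 for miR-17-5p, and its second probe gave 0.82 for the isomiR (limma adjusted p = 0.186) and 0.48 for miR-17-5p. APH1A read 11.38, 11.86 and 11.91 with miR-17-5p and 12.23, 11.07 and 11.72 with miR-17-5p-iso, and lay between 11.16 and 12.46 in the other 7 libraries, so the groups overlapped. Its difference was -0.09 for miR-17-5p-iso (95% interval -0.72 to 0.54, limma adjusted p = 0.894) and -0.05 for miR-17-5p. Its second, dimmer probe averaged 9.51 with miR-17-5p and 10.16 with miR-17-5p-iso, against 9.89 with miR-27a, 10.49 with miR-23b and 9.31 with miR-182-iso. Neither gene was called in the isomiR comparison, and the study chose both with these miR-17-5p libraries known. The study measured enrichment against mock-transfected controls, while the comparators here are other pull-downs. A small difference here thus does not show that a gene was not captured. Whether the differences of the 3 genes differ from one another was not tested.

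**Figure D2:**
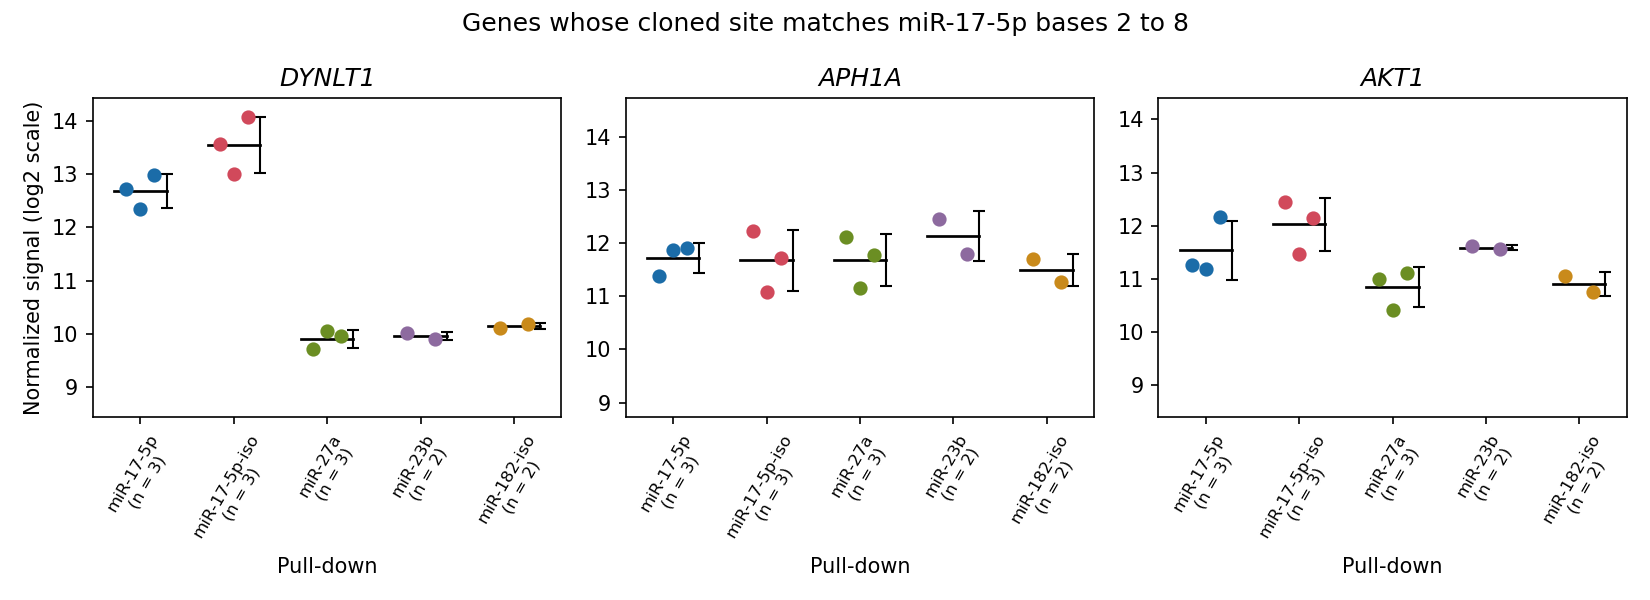
Normalized signal (log2 scale, vertical axes of equal span) of DYNLT1, APH1A and AKT1 in each library of the 5 pull-downs; points are libraries, lines are group means and bars are SD. The isomiR difference was 3.55 for DYNLT1, -0.09 for APH1A and 0.91 for AKT1. The 3 cloned sites hold the same 7 bases, which match the seed of miR-17-5p and not that of the isomiR. Whether the sites bear on these values was not tested.

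The other Tctex-type chains measured here, DYNLT3 and DYNLT2B, did not share the pattern of DYNLT1. DYNLT3 read 9.89, 10.40 and 10.61 with miR-17-5p and 10.03, 10.06 and 10.19 with miR-17-5p-iso, and lay between 9.42 and 10.54 in the other 7 libraries. Its differences were 0.30 for miR-17-5p (95% interval -0.08 to 0.69, limma adjusted p = 0.318) and 0.10 for the isomiR (95% interval -0.28 to 0.49, limma adjusted p = 0.78). DYNLT2B, known from the dynein of cilia, had differences of -0.26 (95% interval -0.72 to 0.19) and -0.19 (95% interval -0.64 to 0.27), and neither was called. Its second, dimmer probe averaged 7.62 with miR-17-5p and 7.77 with miR-17-5p-iso, against 7.90 with miR-27a, 7.82 with miR-23b and 7.54 with miR-182-iso. Of the list's 5 genes DYNLT3 and DYNLT2B were the 2 with a probe. The one call among them was DYNLT3 in the miR-27a pull-down, where it read 10.37, 10.51 and 10.54, against 9.42 to 10.19 in the comparator libraries, a difference of 0.61 (SE 0.17, limma adjusted p = 0.0266), and 16.6% of genes were called higher there. That call was lost without miR-23b replicate 2 or any 1 of the 3 miR-27a libraries.

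Among the other dynein subunits, none of 10 genes was called with miR-17-5p, where 10.7% of genes were called (limma, adjusted p under 0.05; 1 of the 10 had an unadjusted p under 0.05). Their differences ran from -0.34 to 0.42 with a median of 0.02, against -0.02 over all genes. With miR-17-5p-iso 1 of 10 was called higher and none lower, against 5.47% and 3.13% of genes, and the differences ran from -0.45 to 0.98 with a median of -0.03, against -0.04 over all genes. These shares are near the background of the table. The highest of the 10 with the isomiR, DYNC1H1 at 0.98 (95% interval 0.57 to 1.39), stood beside 3.55 for DYNLT1 (95% interval 3.09 to 4.01). The difference between the 2 genes was not tested.

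**Figure D3:**
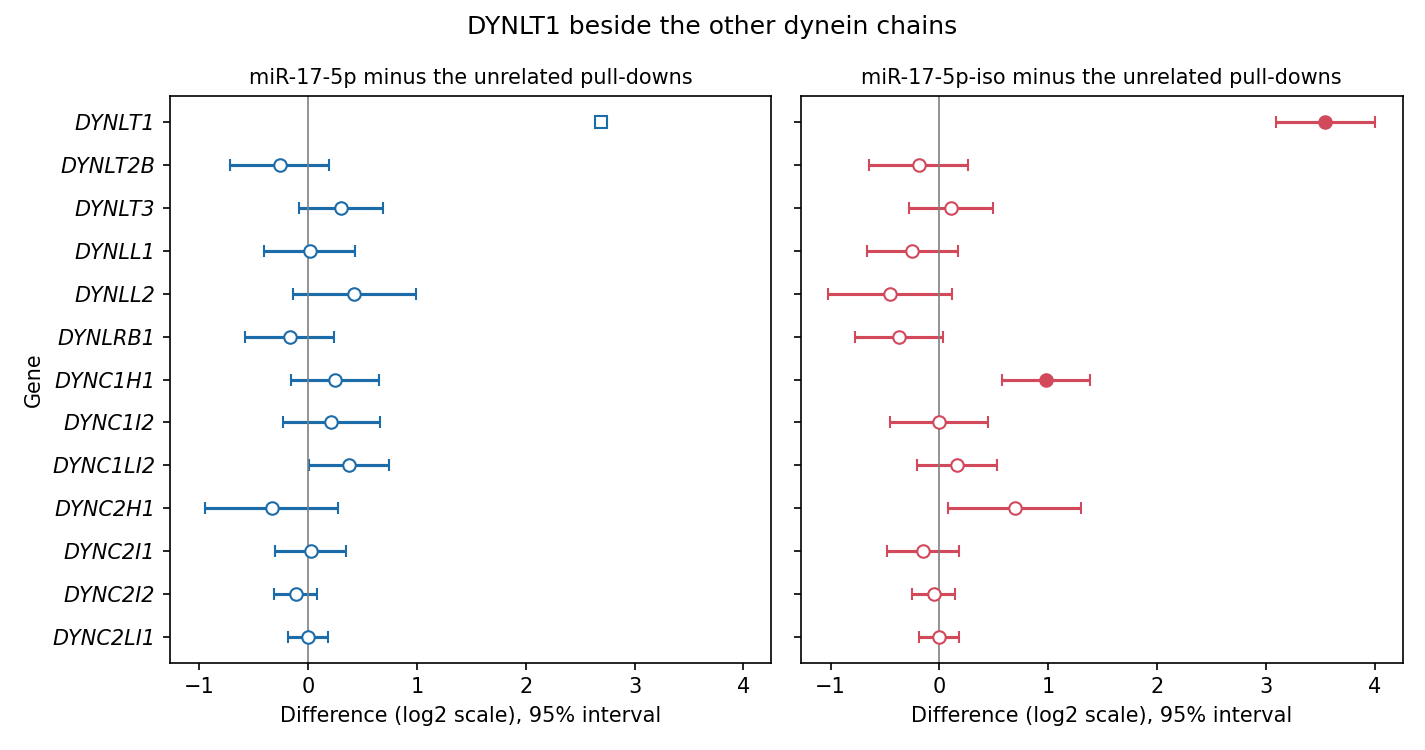
Difference of miR-17-5p (left) and of miR-17-5p-iso (right) from the mean of the miR-27a, miR-23b and miR-182-iso pull-downs (log2 scale, horizontal axes) for DYNLT1 and 12 other dynein chain genes, with 95% intervals; filled circles passed an adjusted p of 0.05, open circles did not, and the square, drawn with no interval, was not tested. DYNLT1 lies at 2.69 and 3.55, and the next gene in the right panel, DYNC1H1, at 0.98.

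The subunit called with the isomiR was DYNC1H1, the heavy chain that carries the motor domain of cytoplasmic dynein 1. It read 10.05, 9.25 and 9.80 with miR-17-5p-iso, against 8.38, 8.55 and 8.55 with miR-27a, 8.72 and 8.41 with miR-23b and 8.89 and 9.32 with miR-182-iso. The lowest isomiR library was just under the highest miR-182-iso library, so the groups overlapped. The difference was 0.98 (SE 0.18, 95% interval 0.57 to 1.39, limma adjusted p = 0.00965), and it was lost without miR-17-5p-iso replicate 3 (0.93, limma adjusted p = 0.0579). With miR-17-5p the same probe read 8.76, 8.86 and 9.28, a difference of 0.24 (limma adjusted p = 0.46), and miR-17-5p minus miR-17-5p-iso was -0.74 (limma adjusted p = 0.156), so a difference between the canonical duplex and the isomiR was not called for it. Across all 13 libraries no other subunit followed DYNLT1 as closely: Pearson's r was 0.774 for DYNC1H1 and between -0.301 and 0.338 for the rest.

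The intermediate, light intermediate, LC8-type and roadblock-type chains measured gave no call in either miR-17 pull-down. DYNLL1, the LC8-type light chain, read 12.46, 12.98 and 12.30 with miR-17-5p and 12.09, 12.70 and 12.16 with miR-17-5p-iso, and 11.82 to 13.03 in the other 7 libraries. Its differences were 0.01 (95% interval -0.40 to 0.43) and -0.25 (95% interval -0.67 to 0.17), and its second probe gave 0.12 and -0.65 (limma adjusted p = 0.829 and 0.149). DYNLL2, the other LC8-type chain, had 0.42 with miR-17-5p and -0.45 with the isomiR, and the difference of 0.88 between those 2 was not called (limma adjusted p = 0.224). DYNLRB1, the roadblock-type chain, had -0.17 and -0.37 by its brightest probe, and its other 3 probes lay between -0.33 and 0.05. DYNC1I2, an intermediate chain to which Tctex-type chains bind, had 0.21 and -0.003, and DYNC1LI2, a light intermediate chain that links the motor to adaptors, had 0.38 and 0.16. By the brightest probe of each of these genes, the differences for the isomiR lay between -0.45 and 0.16 and their intervals between -1.02 and 0.53.

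The subunits of dynein 2, the motor of retrograde transport in cilia, gave no call in these comparisons. DYNC2H1, its heavy chain, read 8.97, 9.17 and 8.53 with miR-17-5p and 10.34, 9.25 and 10.16 with miR-17-5p-iso, and miR-17-5p minus miR-17-5p-iso (-1.03, 95% interval -1.74 to -0.31) was not called (limma adjusted p = 0.185). Against the unrelated pull-downs DYNC2H1 had -0.34 with miR-17-5p and 0.69 with the isomiR. DYNC2I1, DYNC2I2 and DYNC2LI1 had differences between -0.15 and 0.02 for both duplexes. DYNC2I1 and DYNC2LI1 were dim, with means of 7.95 and 7.73 over the 13 libraries, so their differences may be understated. Library medians ran between 8.53 and 8.6. In the direct comparison of miR-17-5p with its isomiR none of the 10 subunits was called, against 1.28% of genes, and 3 had an unadjusted p under 0.05.

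**Figure D4:**
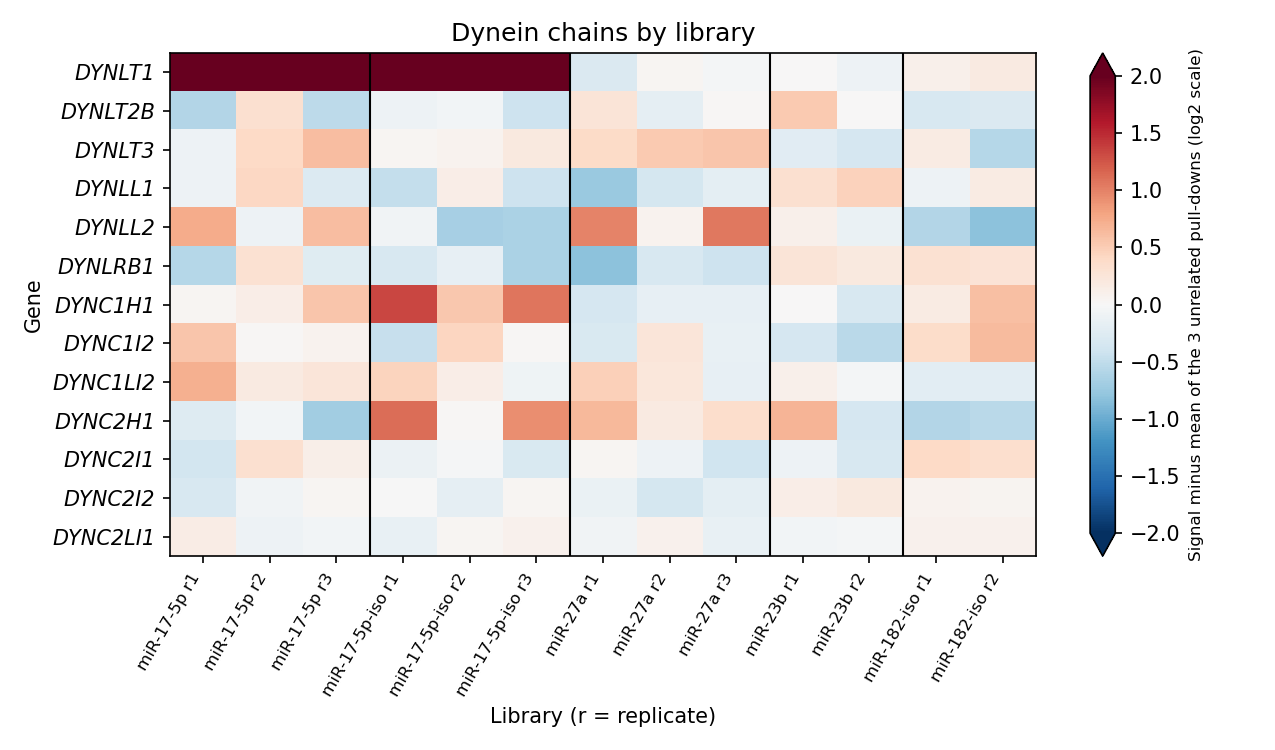
Signal of each library minus the mean of the miR-27a, miR-23b and miR-182-iso pull-downs (colour, log2 scale, with the scale ending at 2 in both directions) for DYNLT1 and 12 other dynein chain genes (rows) in 13 libraries (columns; r marks the replicate). The DYNLT1 row is past the end of the scale in all 6 miR-17 libraries, and no other row is so in any library.

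The other pull-downs gave calls among the subunits. The largest were DYNLL2 at 1.10 with miR-27a and DYNC2H1 at -0.98 with miR-182-iso, where DYNLT1, with the isomiR libraries in its comparator, was at -1.31 and -0.99. With miR-27a 1 gene was called higher and 3 lower of 10, against 16.6% and 16.0% of genes, and the median difference was -0.12, against -0.03 over all genes. DYNLL2 was higher (1.10, limma adjusted p = 0.0111), reading 10.62, 9.70 and 10.69 with miR-27a, against 8.81 to 9.73 in the comparator libraries, which 1 miR-27a library did not exceed. DYNC1H1 (-0.63), DYNLRB1 (-0.56) and DYNC2I2 (-0.29) were lower (limma adjusted p = 0.0278, 0.0429 and 0.0362). DYNC1H1 averaged 9.70 in the isomiR libraries of that comparator, and with both miR-17 duplexes out of it the difference was -0.34 (limma adjusted p = 0.231). The DYNLL2 call was lost without miR-27a replicate 1 (0.96, limma adjusted p = 0.0538) or 3 (0.93, 0.0507), and the other 3 were each lost without 5 or more of the 13 libraries in turn. With both miR-182-iso libraries left out of the comparator, 0 of the 10 were called with miR-27a, although the differences were then 0.95 for DYNLL2, -0.64 for DYNC1H1, -0.44 for DYNLRB1 and -0.28 for DYNC2I2 (limma adjusted p between 0.0566 and 0.184).

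With miR-182-iso 2 genes were called higher and 1 lower, against 17.4% and 17.3% of genes. The 2 were DYNC1I2 (0.67, limma adjusted p = 0.0479) and DYNC2I1 (0.53, limma adjusted p = 0.0355), and DYNC2H1 was lower (-0.98, limma adjusted p = 0.0358), with 8.63 and 8.69 in the miR-182-iso libraries, against 8.89 to 10.34 in the comparator libraries. With both miR-17 duplexes out of the comparator DYNC2H1 was at -0.85 and no longer called (limma adjusted p = 0.0712). Each of these calls was lost without 5 or more of the 13 libraries in turn. With the replicate number as a block, the DYNC1I2 and DYNC2I1 calls were lost as well (limma adjusted p = 0.0709 and 0.0622). The 2 DYNLL1 probes disagreed here, 0.12 by the brighter and 0.87 by the dimmer one, of which the second was called (limma adjusted p = 0.0392). With miR-23b none of the 10 was called, against 7.65% of genes, and 4 had an unadjusted p under 0.05. The miR-182-iso libraries stood somewhat apart over the whole table: they correlated with libraries of other groups at 0.797 to 0.939, where the other groups correlated with each other at 0.87 to 0.973. Beyond the fits without them, their part in the calls that involve them was not tested.

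Dynactin is the complex that joins dynein to its cargo and makes it processive, and 10 of its 12 listed genes had a probe. With miR-17-5p 1 of 10 was called higher, DCTN4 (0.66, limma adjusted p = 0.0384), against 5.81% of genes. That call was lost without 10 of the 13 libraries in turn and with the replicate number as a block. With the isomiR none was called, against 5.47% of genes called higher and 3.13% lower, and 1 had an unadjusted p under 0.05. With miR-27a 3 were lower, DCTN3 (-0.82), DCTN2 (-0.75) and DCTN1 (-0.75), and CAPZA2, an actin-capping subunit, was higher (1.17), each with a limma adjusted p between 0.00358 and 0.00876, against 16.0% of genes called lower and 16.6% higher. With miR-182-iso 3 were higher and 2 lower, against 17.4% and 17.3% of genes. DCTN2 (1.33) and DCTN3 (1.13) were called higher in every fit without 1 library. The third was CAPZB (0.47), whose call was lost without miR-182-iso replicate 1 (0.36) or 2 (0.58) and whose second probe gave -0.86. CAPZA2 was lower (-0.93, lost without 5 of the 13 libraries in turn and at -0.56 without miR-182-iso replicate 2), as was CAPZA1 (-0.59, lost without 6). The miR-182-iso libraries are in the comparator of miR-27a, and without them the miR-27a differences of DCTN2 (-0.34, limma adjusted p = 0.12) and DCTN3 (-0.50, limma adjusted p = 0.0658) were no longer called. No dynactin gene was called with miR-23b or between miR-17-5p and its isomiR, against 7.65% and 1.28% of genes. In these comparisons 1 and 2 had an unadjusted p under 0.05. All dynactin differences of both miR-17 pull-downs lay between -0.26 and 0.80.

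Of 23 listed regulators and adaptors of dynein, 15 had a probe. NIN, the centrosomal protein ninein and an activating adaptor of dynein, was the one called higher with both miR-17 duplexes. It read 10.76, 10.55 and 11.34 with miR-17-5p and 12.07, 10.88 and 11.69 with miR-17-5p-iso, against 10.32, 9.65 and 9.72 with miR-27a, 9.34 and 9.43 with miR-23b and 9.53 and 9.29 with miR-182-iso. All 6 miR-17 libraries were above the other 7, as for DYNLT1 and for 1.77% of all probes. The difference was 1.32 for miR-17-5p (SE 0.26, limma adjusted p = 0.013) and 1.98 for miR-17-5p-iso (SE 0.26, limma adjusted p = 0.00156), and the miR-17-5p call was lost without miR-17-5p replicate 3 (1.09, limma adjusted p = 0.0729). A second NIN probe was dim in every library and gave -0.07 and 0.02.

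The other calls on this list came from all 5 pull-downs, most of them from miR-182-iso. With miR-17-5p ZW10, a kinetochore protein that recruits dynein, was lower (-0.48, limma adjusted p = 0.018, lost without miR-17-5p replicate 3 at -0.35 and 0.0746). With the isomiR the kinesin and dynein adaptor TRAK1 was higher (0.68, limma adjusted p = 0.0133, lost without miR-17-5p-iso replicate 3 at 0.55 and 0.0763). A second, dimmer TRAK1 probe averaged 8.87 with the isomiR, against 8.65 with miR-27a, 8.76 with miR-23b and 8.09 with miR-182-iso. TRAK2 was lower with the isomiR (-0.73, limma adjusted p = 0.0352), a call lost without 8 of the 13 libraries in turn and with the replicate number as a block. A share of 1 higher and 1 lower of 15 with miR-17-5p stood beside 5.81% and 4.9% of genes. In the isomiR pull-down 2 of 15 were higher and 1 lower, against 5.47% and 3.13%. An unadjusted limma p under 0.05 was found for 6 of 15 with miR-17-5p and 8 with the isomiR. It was found for 5 with miR-27a, 4 with miR-23b and 7 with miR-182-iso, and the share of all genes at that level was not counted. With miR-27a the microtubule plus-end protein CLIP1 (1.53, limma adjusted p = 0.000371) and the kinetochore adaptor SPDL1 (0.54, limma adjusted p = 0.0154) were higher, 2 of 15 against 16.6% of genes, and the SPDL1 call was lost without miR-27a replicate 1 or 2. With miR-182-iso 4 were higher and 3 lower, against 17.4% and 17.3% of genes, BICD2 (0.91), NIN (-0.87), CLIP1 (-0.76) and NUMA1 (0.67) being the largest. The BICD2 call was lost without either miR-182-iso library, and those of CLIP1 (-0.51, limma adjusted p = 0.171) and NUMA1 (0.47, limma adjusted p = 0.179) without miR-182-iso replicate 2. CLIP1 averaged 9.16 with miR-182-iso, against 9.32 with the isomiR, 9.55 with miR-23b and 10.87 with miR-27a, so miR-27a held its comparator up. NIN averaged 9.41 with miR-182-iso, against 9.39 with miR-23b, 9.89 with miR-27a and 11.55 with the isomiR in the comparator. Its call was lost without 9 of the 13 libraries in turn, and with both miR-17 duplexes out of the comparator the difference was -0.23 (limma adjusted p = 0.605). With miR-23b 1 was higher, ZW10 (0.50, limma adjusted p = 0.037, lost without 7 of the 13 libraries in turn), against 5.21% of genes.

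The genes whose signal was most like that of DYNLT1 over the 13 libraries were COA5 (Pearson's r 0.982), an assembly factor of cytochrome c oxidase, and SLC25A20 (0.982), the mitochondrial carnitine carrier, then ZNF443 (0.971), HSP90B1 (0.97), a chaperone of the endoplasmic reticulum, and ZNF618 (0.969). The libraries fall into 2 clusters, 6 high and 7 low, so these values mostly restate that each gene was high with both miR-17 duplexes. Within the 6 miR-17 libraries r was 0.944 for SLC25A20, 0.826 for ZNF618, 0.807 for ZNF443, 0.806 for COA5 and 0.697 for HSP90B1. Within the other 7 libraries r was 0.74 for SLC25A20 and between 0.0817 and 0.392 for the other 4. SLC25A20 was thus the one that also followed DYNLT1 in the low libraries, over a narrow range of values. The points share libraries and their normalization, and no test was made.

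Of these 5 genes none rose as far as DYNLT1 with either duplex. HSP90B1 had 13.10 ± 0.36 with miR-17-5p and 13.77 ± 0.13 with miR-17-5p-iso (SD, n = 3 each), which put it 1.82 and 2.50 above the unrelated pull-downs. ZNF443 was 1.41 and 2.12 above them, COA5 1.49 and 1.82, SLC25A20 0.62 and 0.94, and ZNF618 0.61 and 0.79. In all 5, as in DYNLT1, the mean was higher with the isomiR than with miR-17-5p, an order that choosing genes by likeness to DYNLT1 favours. By Spearman correlation, and by Pearson correlation over the 10 libraries without miR-17-5p, 0 of these 5 remained among the 5 most similar, and PXYLP1 led both lists (0.978 and 0.994).

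**Figure D5:**
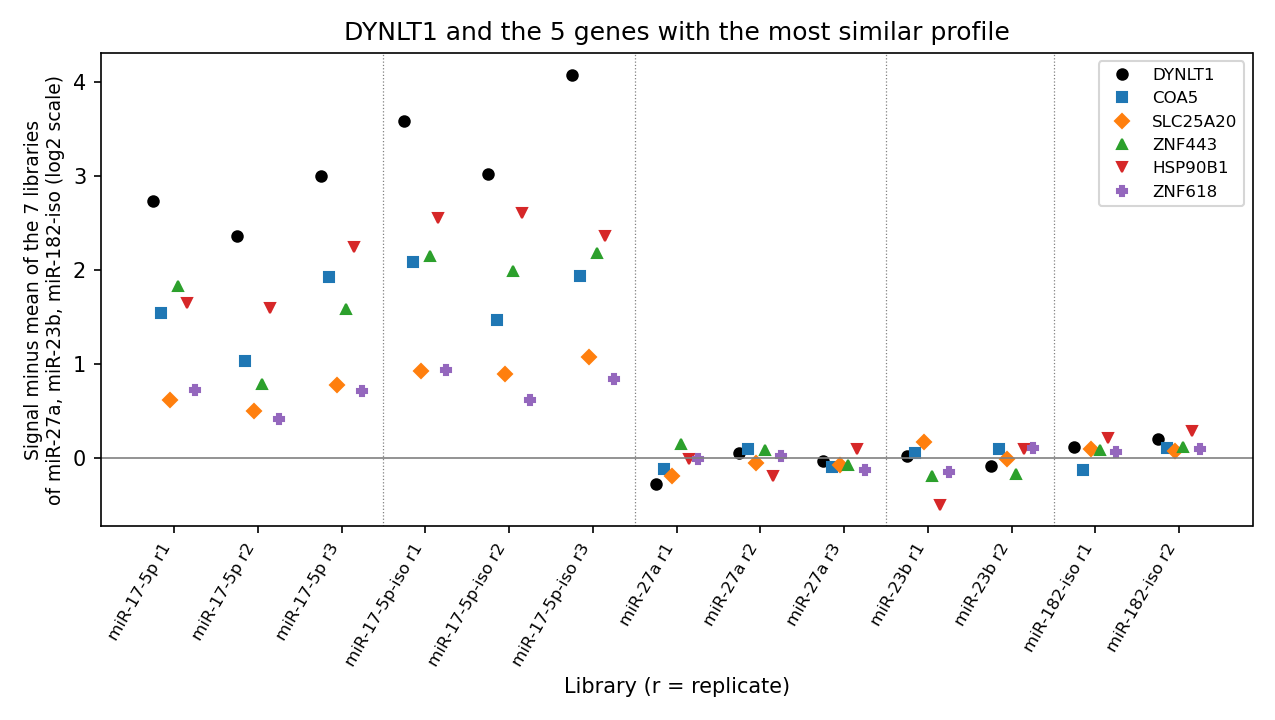
Signal minus the mean of the 7 miR-27a, miR-23b and miR-182-iso libraries (log2 scale, vertical axis) for DYNLT1 and the 5 genes most like it, in each of 13 libraries (horizontal axis; r marks the replicate); each point is 1 library. All 6 genes are higher in the 6 miR-17 libraries than in the other 7, and DYNLT1 is the highest of the 6 in every miR-17 library.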

How the data were processed

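HEK293T pull-down libraries (13) were hybridized to Illumina HT-12 arrays, of more than one version; the version per library is not stated. The authors background-adjusted the signals, applied a variance-stabilizing transformation and robust spline normalization with lumi (version 2.2.1), kept probes with a detection p under 0.01 in all mock controls, and deposited values on a log2 scale, compressed for dim probes, so that differences of dim probes are understated. Library medians ran between 8.53 and 8.6, and no 2 libraries were identical. A non-normalized table was not used, because the names of its 26 per-sample columns match no label. Precision is limited by the number of arrays.

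Gene symbols came from the platform annotation and matched RefSeq (GRCh38.p14) for 10442 of 10444 probes with 1 symbol, while 1562 had none and 1 had several. The probe with the highest mean stood for a gene. Groups were compared with limma (version 3.58.1, R 4.3.3) in 1 model of 5 groups over all probes, two-sided, with Benjamini-Hochberg adjustment and calls at 0.05. "Unrelated" is the equal mean of miR-27a, miR-23b and miR-182-iso for both miR-17 duplexes, and of the other 2 and miR-17-5p-iso for each of those 3. The gene, its lists, tests and alternatives were chosen with earlier results of these data known. Named were every DYNLT1 probe, every other dynein subunit with a probe, the called list members (at most 4 per comparison), APH1A, AKT1 and the 5 genes with the highest Pearson r. The limma script was checked on simulated data. Seed matches were searched in the study's cloned oligos. Figures used matplotlib 3.10.9.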

Additional observations from a re-analysis of the deposited data

How the results depend on the processing

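The isomiR call of DYNLT1 held in all alternatives run, with adjusted p up to 0.000341. Against all 4 other pull-downs the miR-17-5p difference was 1.80. Without both miR-17 duplexes in the comparator the values were -0.15 (miR-27a), -0.071 (miR-23b) and 0.22 (miR-182-iso). One-sided tests for higher signal, by construction, lost the 3 negative calls (-1.31, -1.25 and -0.99, adjusted p = 1.0 by limma), and a threshold of 0.01 lost those of miR-23b (-1.25) and miR-182-iso (-0.99). Without 1 library the ranges were 2.54 to 2.86 (miR-17-5p), 3.29 to 3.82 (miR-17-5p-iso), -1.40 to -1.22 (miR-27a), -1.34 to -1.16 (miR-23b), -1.08 to -0.90 (miR-182-iso), -1.13 to -0.60 (miR-17-5p minus miR-17-5p-iso) and, for the uncalled miR-27a minus miR-23b, -0.12 to 0.046; its sign turned without miR-23b replicate 1 (0.0049) or miR-27a replicate 1 (0.046).

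Called subunits of 10, without 1 library, ranged 0 to 5 with miR-27a (4 with all libraries), 0 to 4 with miR-182-iso (3), 0 to 2 with the isomiR (1), 0 to 1 for miR-17-5p minus miR-17-5p-iso (0), and stayed at 0 with miR-17-5p and miR-23b. With miR-27a they were 1 by one-sided tests, 0 at 0.01 and 0 without both miR-182-iso libraries; with miR-182-iso, 0 at 0.01. The mean over its probes turned CAPZB with miR-182-iso to -0.20, against 0.47 by its brightest probe, and its second probe gave -0.86.

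Of 23 pairs of libraries with the same replicate number, 13 had deviations correlating above 0.1 (range -0.334 to 0.631). Of the 13 of these pairs without a miR-17-5p library 12 did (lowest 0.0568). In the pull-downs other than miR-17-5p, same-numbered libraries thus tended to deviate together, and whether they share a batch was not tested. Deviations were taken from the group mean, so in groups of 2 libraries they mirror each other. Replicates 1 and 2 of miR-23b and miR-182-iso both gave 0.14, for example, and the pairs counted are not separate observations. Every same-numbered pair with miR-17-5p replicate 1 or 2 was negative, between -0.334 and -0.164. Replicate 3 of miR-17-5p gave 0.335 with miR-17-5p-iso and 0.0949 with miR-27a. A block on the replicate number thus set miR-17-5p mostly beside libraries that deviated in the opposite direction, which limits its block results. The main fits did not use the replicate number. With it as a block, DYNLT1 gave 2.59 (miR-17-5p), 3.45 (miR-17-5p-iso), -1.41 (miR-27a), -1.15 (miR-23b) and -0.89 (miR-182-iso) with every call kept, and 1 subunit (DYNC1LI2), in place of 0, was called with miR-17-5p; of the other calls named here, those of DYNC1I2 and DYNC2I1 with miR-182-iso (limma adjusted p = 0.0709 and 0.0622), DCTN4 with miR-17-5p and TRAK2 with miR-17-5p-iso were lost.

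Probes called over the table, 1183 with miR-17-5p and 943 with miR-17-5p-iso, became 370 and 377 at 0.01 and 707 and 589 against all 4 other pull-downs; without both miR-182-iso libraries miR-17-5p gave 1973, miR-27a 1619 in place of 3517 and miR-23b 414 in place of 815. The list of regulators, 2 called with miR-17-5p and 3 with the isomiR, gave 4 and 5 there. The cause of these shifts was not tested. Background correction anew (neqc) and the slide as a block were not run, because column names match no label and no slide is given. DYNLT1 rests on 1 probe, and no call has a mock control behind it.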
